A study of Mus musculus with 21 samples.

Results

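Metallothioneins and the genes that store, import and export iron were read in the neocortex of rNLS8 mice, a model in which neurons make a TDP-43 that cannot enter the nucleus. The 10 genes were taken by symbol from the 48474 rows of the deposited count table, and all 10 passed the filter on low counts that left 19052 genes for testing. They were 3 metallothioneins (Mt1, Mt2 and Mt3), the heavy and light ferritin chains (Fth1 and Ftl1), 4 genes of iron uptake (Tfrc, Trf, Slc11a2 and Slc11a1) and the iron exporter Slc40a1.

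The labels give neocortex and the study's methods brain cortex, while a legend in the study names hippocampus for rNLS8 data of these group sizes; the labels were followed. Bulk RNA sequencing covered 21 mice, 11 of them labelled WT and 10 labelled TG. The TG mice were bigenic rNLS8 animals, in which the neurofilament heavy chain promoter drives the tetracycline transactivator (NEFH-tTA) and this in turn drives human TDP-43 without its nuclear localization signal (tetO-hTDP-43ΔNLS). The WT mice, called wild-type here, are described as monogenic littermates in the series' own design text, so some of them may carry 1 of the 2 transgenes. Every mouse had been backcrossed to C57BL/6J, was 17 to 19 weeks old and was injected into the cerebral ventricle with a non-targeting antisense oligonucleotide (350 µg in 10 µL). Doxycycline chow (200 mg/kg), which keeps the transgene off, was given until 2 weeks after the injection, and tissue was taken 3 weeks after its withdrawal. No mouse without an injection was included, so what all mice share through the oligonucleotide and the doxycycline cannot be told apart from the baseline. By the batch field of the labels, cohort A held 4 wild-type and 3 rNLS8 mice and cohort B held 7 of each. Sex is not given in the labels. In counts per 1000000 counts of the library (CPM), the level of Xist was under 10 in no mouse of cohort A, in 4 of 7 wild-type mice of cohort B and in 6 of 7 rNLS8 mice of cohort B.

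Each library held 20700912 to 22263809 counts, so 3 counts correspond to 0.135 to 0.145 CPM. The labelled tissue showed its defining transcripts, with neuronal, astrocyte, oligodendrocyte and microglial markers all detected in every group and none of the listed markers at 0 over the 21 mice. Tardbp, the mouse gene for TDP-43, averaged 2575 ± 207 normalized counts in wild-type and 4108 ± 953 in rNLS8 mice (SD, n = 11 and n = 10). The ranges, 2254 to 2829 in wild-type and 2362 to 5054 in rNLS8 mice, overlapped. Reads of the human transgene may be counted in this row. The rNLS8 mice T61340 and T60303 of cohort A stood apart from the others in earlier results of these data, and values without both are given where they change a result.

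Iron is kept in a narrow range inside cells. Transferrin (Trf) carries iron to the transferrin receptor (Tfrc), the divalent metal transporters move it across membranes, ferritin shells store it, and ferroportin (Slc40a1) is the exporter. When iron is low, the iron regulatory proteins bind hairpins in messenger RNA called iron-responsive elements, which blocks translation when the hairpin lies in front of the coding sequence and stabilises the RNA when it lies behind it. Counts of RNA therefore do not measure ferritin or ferroportin protein. Metallothioneins are small cysteine-rich proteins that bind zinc and copper. The genes Mt1 and Mt2 are switched on by metals through a zinc-sensing factor that binds metal-responsive elements in their promoters.

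The iron-responsive elements are shown because it is through them that the iron regulatory proteins act on several of the members. They were searched as C, 5 bases, CAGTG with A, C or T after it, and 5 bases that pair with the first 5 (G with T allowed), in the first listed transcript of each gene. The capitals mark the bulged C and the loop, and positions are from GENCODE on GRCm38. Fth1 (chr19:9982732-9982761, plus strand), Ftl1 (chr7:45459778-45459807, minus strand) and Slc40a1 (chr1:45925464-45925493, minus strand) each hold 1 in the 5′ UTR.
Fth1: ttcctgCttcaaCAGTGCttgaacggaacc
Ftl1: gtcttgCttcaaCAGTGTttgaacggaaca
Slc40a1: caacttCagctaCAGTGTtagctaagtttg

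Tfrc holds 4 in its 3′ UTR, on the plus strand of chromosome 16 at 32631219-32631248, 32631598-32631627, 32631663-32631692 and 32631710-32631739. They are given in that order.
Tfrc 1: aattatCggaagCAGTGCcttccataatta
Tfrc 2: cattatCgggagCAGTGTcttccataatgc
Tfrc 3: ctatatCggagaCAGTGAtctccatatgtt
Tfrc 4: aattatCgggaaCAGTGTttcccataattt

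The pattern occurred in 174 of 21291 such protein-coding transcripts (0.817%), and only the Tfrc transcript held 4 or more. It was not found in the transcripts searched for Mt1, Mt2, Mt3, Trf, Slc11a1 or Slc11a2, which says only that these letters are not in those transcripts. Slc11a2 is known to have transcript forms with and without such an element in the 3′ UTR, and only 1 of its transcripts was searched.

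Promoter windows were read for 7 of the 10 genes from RefSeq (GRCm38.p6). Mt1 and Mt2 are printed because they were the pair that varied together between mice, as described further on. The core of the metal-responsive element was searched as TGCACNC or TGCGCNC on both strands. In windows of 300 bases, from 250 before to 50 after the start, Mt2 held 4 cores, Mt1 held 3, Tfrc 2 in the first of its windows and Mt3 held 1. Fth1, Ftl1 and Slc11a1 held none in such windows. Of 32851 windows of the same length, 25.7% held at least 1 core and 0.517% held 4 or more. The first 240 bases of the Mt1 window (chr8:94178839-94179078) and of the Mt2 window (chr8:94172368-94172607), both on the plus strand, hold 1 and 3 of these cores, in capitals.
Mt1: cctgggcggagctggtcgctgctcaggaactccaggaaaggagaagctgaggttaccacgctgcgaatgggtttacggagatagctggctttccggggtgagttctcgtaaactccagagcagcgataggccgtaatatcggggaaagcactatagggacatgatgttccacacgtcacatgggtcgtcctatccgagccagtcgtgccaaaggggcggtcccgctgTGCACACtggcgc
Mt2: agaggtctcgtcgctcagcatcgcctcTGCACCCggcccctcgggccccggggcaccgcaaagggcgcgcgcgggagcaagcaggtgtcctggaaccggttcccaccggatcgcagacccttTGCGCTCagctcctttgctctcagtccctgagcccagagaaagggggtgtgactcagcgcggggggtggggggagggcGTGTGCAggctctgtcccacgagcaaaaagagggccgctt

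In CPM per kilobase of transcript, Fth1 was far above the others at 1514 ± 233 in wild-type mice (SD, n = 11). Mt3, the metallothionein typical of brain, followed at 327 ± 30.9. Ftl1 at 223 ± 25.5 and Mt1 at 217 ± 45 did not differ beyond their spread. Neither did Trf at 110 ± 21.9 and Mt2 at 89.1 ± 24.8. Below them came Tfrc at 18.1 ± 1.77, Slc11a2 at 13.3 ± 1.0, Slc40a1 at 3.77 ± 0.61 and Slc11a1 at 0.995 ± 0.13. In the rNLS8 mice 2 steps of this order changed. Ftl1 reached 349 ± 60.4, above Mt3 at 291 ± 36.2, although the spreads of this pair overlapped. Slc11a2 reached 19.5 ± 1.70, above Tfrc at 14.6 ± 2.14 (SD, n = 10). Transcript lengths are those of 1 annotated transcript per gene, so an order between genes assumes that this is the transcript in use.

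The question of the main comparison was which of these genes differ between rNLS8 and wild-type neocortex. With cohort as a covariate, edgeR's quasi-likelihood test with Benjamini-Hochberg adjustment over all genes called 6 of the 10 members at an adjusted p under 0.05, beside 43.6% of all genes tested. Ftl1, Slc11a2 and Slc11a1 were higher in rNLS8 mice (22.4% of all genes were higher). Tfrc, Fth1 and Mt3 were lower (21.2% of all genes were lower). Mt1, Mt2, Trf and Slc40a1 were not called. The share of members called was thus near that of the whole table, and the sizes differed widely among them. The median log2 fold change was 0.05 over the 10 members and -0.0019 over all genes. In bulk tissue, fewer cells of a type and less RNA per cell cannot be told apart.

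**Figure D1:**
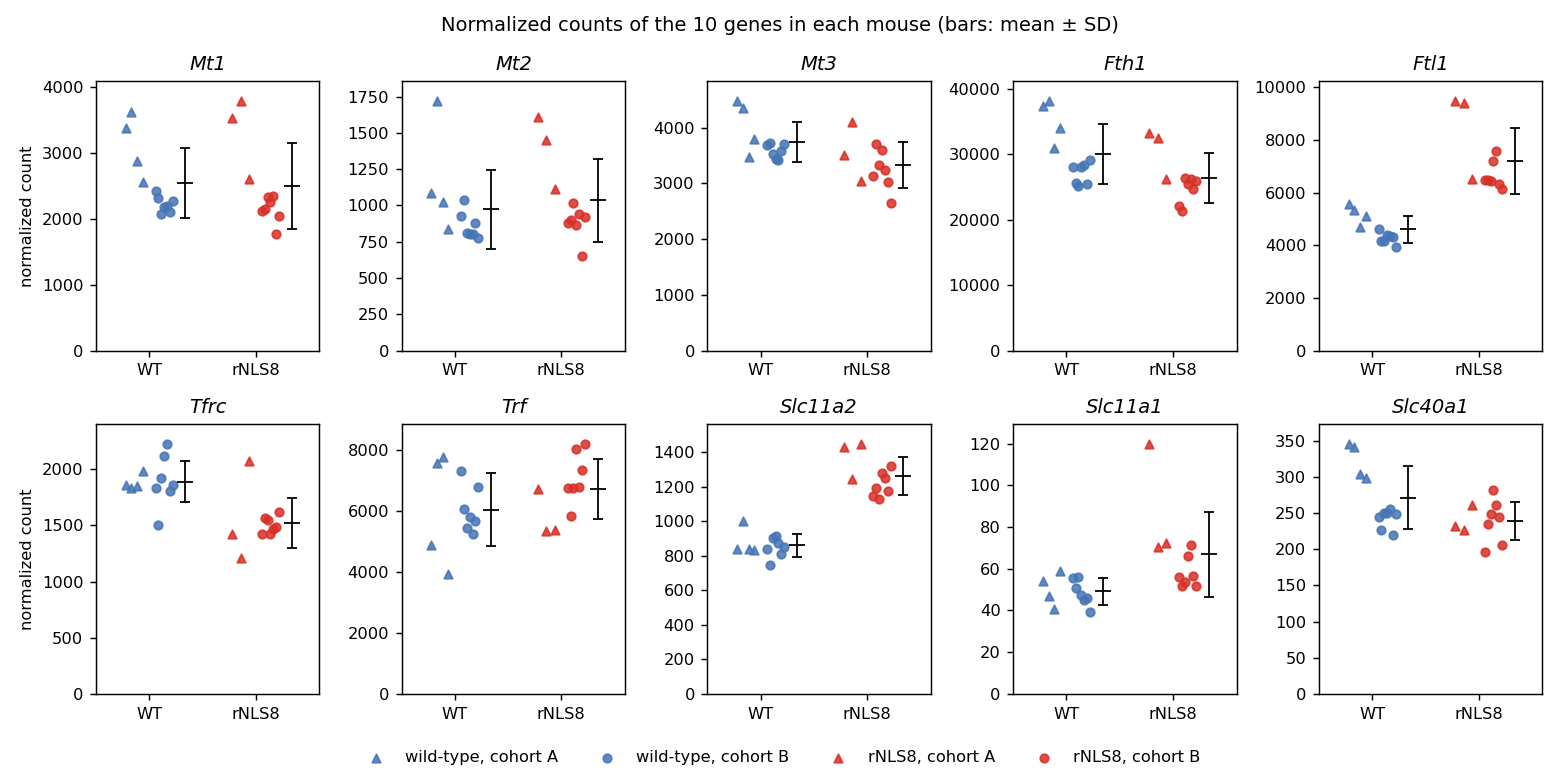
Normalized counts (y axis, from 0) of the 10 genes in each mouse, by genotype (x axis), with triangles for cohort A, circles for cohort B and bars for mean ± SD. For Ftl1 and Slc11a2 the 10 rNLS8 mice lie above the 11 wild-type mice, whereas the groups overlap for the other 8 genes.

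The ferritin chains had estimates of opposite sign, large for Ftl1 and small for Fth1. Ftl1, the light chain that supports formation of the iron core, had 3924 to 5556 normalized counts in wild-type mice (median 4399) and 6146 to 9477 in rNLS8 mice (median 6500). The lowest rNLS8 mouse was above the highest wild-type mouse. This was a 1.58-fold rise (log2 fold change 0.66, SE 0.06, edgeR adjusted p = 1.78e-09). Fth1, the heavy chain with the ferroxidase activity, had 25194 to 38167 normalized counts in wild-type mice (median 28314) and 21340 to 33228 in rNLS8 mice (median 26041). The groups overlapped widely and 3 rNLS8 mice lay below the lowest wild-type mouse. Fth1 fell by 0.16 on the log2 scale (SE 0.05, edgeR adjusted p = 0.0176). This call was lost when counts were scaled by library size alone (edgeR log2 fold change -0.08, adjusted p = 0.246) and when cohort was left out of the edgeR fit (adjusted p = 0.0915). Fth1 was called neither in cohort A alone (log2 fold change -0.17, edgeR adjusted p = 0.456) nor in cohort B alone (-0.15, edgeR adjusted p = 0.0501). Of 15 alternative settings, 9 kept the call.

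The Ftl1 locus has processed copies elsewhere in the genome, and reads may be split among them. The rows Ftl1-ps1 (99.6% identical over 910 bases), Ftl2-ps (98.7%) and Gm15590 (99.1%) held counts equal to 14.4%, 11.7% and 8.23% of those of Ftl1. Their log2 fold changes of 0.76, 0.76 and 0.74 were close to that of the parent. With all rows at least 90% identical over 500 bases added to it, the Ftl1 log2 fold change was 0.69, so the direction did not rest on how reads were split. For Fth1 the 1 such row, Gm6977, held 0.132% of the parent's counts.

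The ratio of the chains within a mouse does not depend on scaling between libraries, and it was computed after the values above were seen. Per base of transcript, there were 0.129 to 0.162 Ftl1 counts for each Fth1 count in wild-type mice (median 0.148) and 0.228 to 0.291 in rNLS8 mice (median 0.273). The ranges did not meet. Averaged over cohorts the ratio was 1.76-fold higher in rNLS8 mice, which is a description and no further test, since the pair was chosen for its values. Within cohort A the log2 difference was 0.89 and within cohort B it was 0.78.

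Of the uptake genes, the transferrin receptor and the divalent metal transporter 1 went opposite ways. Slc11a2, which encodes that transporter and moves ferrous iron out of endosomes, had 749 to 1002 normalized counts in wild-type mice (median 842) and 1132 to 1446 in rNLS8 mice (median 1248). No rNLS8 mouse overlapped a wild-type mouse. The increase was 1.47-fold (log2 fold change 0.56, SE 0.05, edgeR adjusted p = 1.20e-09). Ftl1 and Slc11a2 were thus the 2 of 10 members with every rNLS8 mouse above every wild-type mouse, which held for 3.71% of all genes tested. No member had every rNLS8 mouse below (3.67% of all genes).

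Tfrc, the receptor that takes up iron-loaded transferrin, had 1503 to 2224 normalized counts in wild-type mice (median 1856) and 1208 to 2075 in rNLS8 mice (median 1476). The groups overlapped, with 6 of 10 rNLS8 mice below the lowest wild-type mouse and 9 below the wild-type median. The single high rNLS8 mouse was T61342 of cohort A, at 2075 where the next was at 1618. Tfrc fell by 0.31 on the log2 scale, to 0.807 of the wild-type level (SE 0.07, edgeR adjusted p = 0.0011), and by 0.38 without T61342 (edgeR adjusted p = 1.06e-05). It was not called in cohort A alone (log2 fold change -0.24, edgeR adjusted p = 0.361).

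Set against each other within a mouse, and again after their values were seen, Slc11a2 and Tfrc changed places when counts were divided by transcript length. Per base of transcript, Slc11a2 was at 0.634 to 0.881 of Tfrc in wild-type mice (median 0.735) and at 1.13 to 1.67 in rNLS8 mice (median 1.31). By this measure Slc11a2 was the lower of the pair in all 11 wild-type mice and the higher in all 10 rNLS8 mice. That order rests on the length of 1 annotated transcript per gene. In counts not divided by length, Slc11a2 was below Tfrc in some rNLS8 mice (1348 against 1652 in T_70267). In others it was above (1516 against 1510 in T60303). The ratio was 1.83-fold higher in rNLS8 mice, again as a description of a pair chosen for its values.

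**Figure D2:**
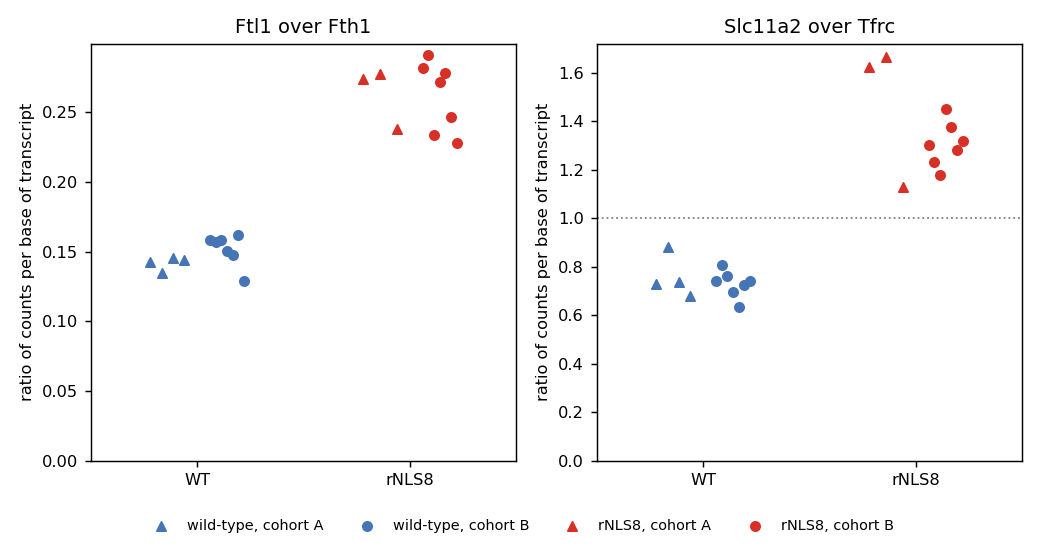
Ratio of counts per base of transcript (y axis, from 0) of Ftl1 over Fth1 and of Slc11a2 over Tfrc in each mouse, by genotype and cohort, with a dotted line at 1. In the left panel wild-type mice end at 0.162 and rNLS8 mice begin at 0.228, and in the right panel the groups lie on either side of 1. Where the line at 1 falls depends on the transcript lengths used.

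Slc11a1, the related transporter of phagocytic cells, was the least abundant member. It had 39.2 to 59.0 normalized counts in wild-type mice (median 47.5) and 51.9 to 120 in rNLS8 mice (median 61.3). The groups overlapped, although every rNLS8 mouse was above the wild-type median. T60303 of cohort A was far above the rest of its group, at 120 where the next was at 72.4. The gene rose 1.36-fold (log2 fold change 0.45, SE 0.12, edgeR adjusted p = 0.00348). Without T60303 the log2 fold change was 0.33 (edgeR adjusted p = 0.00782). It was 0.83 in cohort A alone (edgeR adjusted p = 0.0489) and 0.25 in cohort B alone, where the call was lost (edgeR adjusted p = 0.0812).

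Markers of microglia did not move as one. Of 7 microglial markers 4 were higher in rNLS8 mice (22.4% of all genes were higher), 2 were not called, and P2ry12, named here after its value was seen, fell by 0.35 on the log2 scale (edgeR adjusted p = 2.51e-05). Their summed level was 364 to 423 CPM in wild-type mice (median 397) and 385 to 562 CPM in rNLS8 mice (median 449). T60303 had the highest sum. Csf1r had a log2 fold change of 0.13 (edgeR adjusted p = 0.0217) and Cx3cr1 one of 0.07 (edgeR adjusted p = 0.207). Without T61340 and T60303, 3 of the 7 were called, in either direction, beside 7778 of 19403 genes. The 4 neutrophil markers summed to under 1.67 CPM in every mouse, and none of the 4 border macrophage markers was called. The part of cell numbers in the Slc11a1 result was not tested.

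Trf, which in brain is made mainly by oligodendrocytes and the choroid plexus, had 3956 to 7776 normalized counts in wild-type mice (median 5825) and 5359 to 8205 in rNLS8 mice (median 6763). The groups overlapped over most of their range. The log2 fold change was 0.14 (SE 0.10, edgeR adjusted p = 0.289). Cohort B alone gave 0.22 (edgeR adjusted p = 0.0354) and cohort A alone gave -0.03 (edgeR adjusted p = 0.956).

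None of the 9 oligodendrocyte markers was called, and their summed level was 4427 to 7416 CPM in wild-type and 4260 to 7555 CPM in rNLS8 mice. Mbp, the most abundant, had a log2 fold change of 0.13 (edgeR adjusted p = 0.317). The choroid plexus markers, led by Ttr, summed to between 16.4 and 2187 CPM in wild-type and between 25.6 and 1120 CPM in rNLS8 mice. None of these 5 was called, and the spread between single mice was wider than for any other marker list. Their part in the Trf values was not tested.

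Slc40a1, the only known iron exporter of cells, had 220 to 345 normalized counts in wild-type mice (median 251) and 196 to 282 in rNLS8 mice (median 240). It was not called, at a log2 fold change of -0.15 (SE 0.07, edgeR adjusted p = 0.0895). The estimates differed by cohort, at -0.40 in cohort A and -0.03 in cohort B. It was called in 1 of the 21 fits that left out a mouse, that without T_70252 (edgeR adjusted p = 0.0301), and its log2 fold change without T61340 and T60303 was -0.07 (edgeR adjusted p = 0.458).

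The metallothioneins did not share the rise of Ftl1 and Slc11a2. Mt1 had 2078 to 3621 normalized counts in wild-type mice (median 2308) and 1776 to 3785 in rNLS8 mice (median 2290). The groups lay on top of each other. Its log2 fold change was -0.01 (SE 0.07, edgeR adjusted p = 0.962), and the sign turned under 4 of 15 alternative settings, scaling by library size among them (0.07).

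Mt2 had 777 to 1719 normalized counts in wild-type mice (median 879) and 653 to 1608 in rNLS8 mice (median 931). These ranges also overlapped throughout. The log2 fold change was 0.11 (SE 0.10, edgeR adjusted p = 0.414).

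Mt3, also known as growth inhibitory factor, had 3415 to 4476 normalized counts in wild-type mice (median 3689) and 2640 to 4102 in rNLS8 mice (median 3282). Below the lowest wild-type mouse lay 6 of the 10 rNLS8 mice. Mt3 fell by 0.16 on the log2 scale (SE 0.06, edgeR adjusted p = 0.0358). The call was not stable. It was lost with scaling by library size alone (log2 fold change -0.08, edgeR adjusted p = 0.301), with Xist as a covariate (edgeR adjusted p = 0.0578) and in 10 of the 21 fits that left out a mouse.

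All 3 metallothioneins are expressed in astrocytes, Mt3 in neurons too, and the markers of these cells were mostly lower in rNLS8 mice. Of 7 astrocyte markers 6 were lower (21.2% of all genes were lower) and 1, Gfap, was higher, beside 22.4% of all genes (log2 fold change 1.03, edgeR adjusted p = 4.97e-08). Their summed level was 4242 to 5533 CPM in wild-type and 3290 to 4661 CPM in rNLS8 mice. Slc1a2 had a log2 fold change of -0.32 (edgeR adjusted p = 0.000265) and Slc1a3 one of -0.15 (edgeR adjusted p = 0.00947). With scaling by library size alone 3 of the 7 astrocyte markers were called, in either direction, beside 8732 of 19052 genes.

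Neuronal markers were lower for 5 of 7, beside 21.2% of all genes, with sums of 6244 to 7706 CPM in wild-type and 4758 to 5917 CPM in rNLS8 mice. Snap25 fell by 0.76 (edgeR adjusted p = 1.33e-11) and Syt1 by 0.54 (edgeR adjusted p = 3.12e-08) on the log2 scale, while Slc17a7 had a log2 fold change of 0.05 (edgeR adjusted p = 0.575). Endothelial markers, from the cells that carry transferrin receptor at the blood-brain barrier, were lower for 2 of 6, beside the same 21.2%, with sums of 227 to 283 CPM and 195 to 240 CPM. Flt1 and Slco1c1 each fell by 0.18 on the log2 scale, and Cldn5 had a log2 fold change of -0.03 (edgeR adjusted p = 0.772). The part of these cells in the Mt3, Fth1 and Tfrc results was not tested.

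Red blood cells, which hold iron in heme, left 62.7 to 377 CPM of their 5 markers in wild-type and 29.7 to 243 CPM in rNLS8 mice, and none of these markers was called. None of the 4 markers of meningeal fibroblasts was called either, with sums of 31.8 to 78.6 CPM and 31.5 to 61.4 CPM.

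The cohorts were then compared, since the levels of several members followed cohort as much as genotype. Among wild-type mice, every cohort A mouse was above every cohort B mouse for 4 of the 10 members, Mt1, Fth1, Ftl1 and Slc40a1, beside 3.95% of all genes. No member was wholly below (2.87% of all genes). Among rNLS8 mice this held for Mt1 and Mt2 (5.03% of all genes), again with none below (4.23% of all genes). Fth1 in wild-type mice, for example, had 31005 to 38167 normalized counts in cohort A and 25194 to 29153 in cohort B. Slc40a1 had 299 to 345 in cohort A and 220 to 256 in cohort B among wild-type mice, but 227 to 262 and 196 to 282 among rNLS8 mice. Cohort cannot be told apart from whatever else differed between the cohorts, the share of mice with a low Xist level included.

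**Figure D3:**
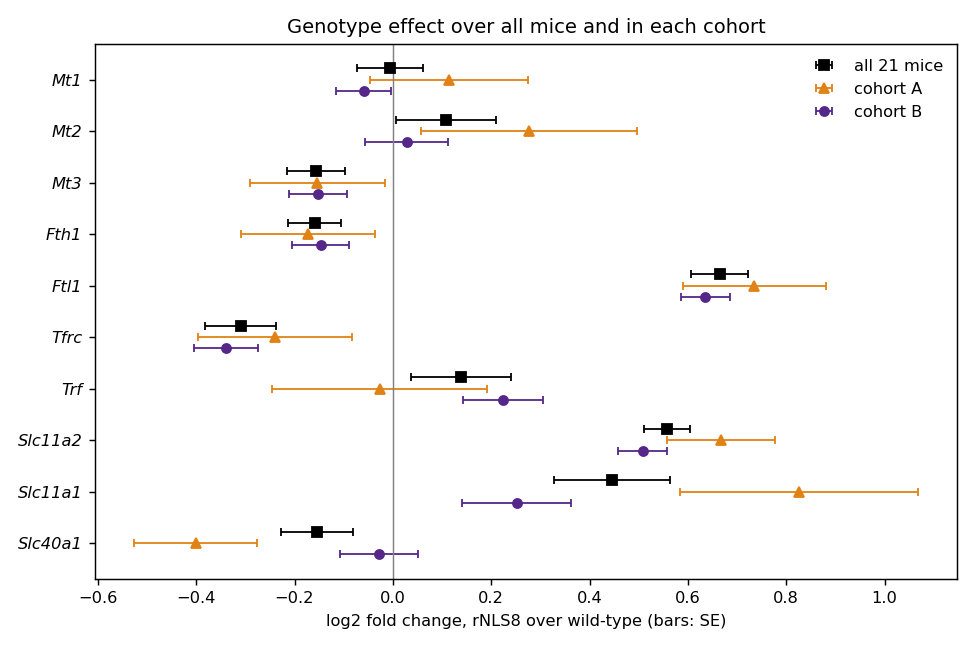
Log2 fold change of rNLS8 over wild-type mice (x axis) for each of the 10 genes over all 21 mice (squares), in cohort A (triangles) and in cohort B (circles), with bars for the SE. Ftl1 and Slc11a2 lie to the right of 0 in both cohorts, Tfrc, Fth1 and Mt3 lie to the left in both, and Mt1 and Trf change side.

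In cohort A alone edgeR called 3 members, Ftl1, Slc11a2 and Slc11a1, beside 11.8% of all genes. In cohort B alone it called 5, Ftl1, Slc11a2, Tfrc, Trf and Mt3, beside 39.1% of all genes. For 8 of the 10 members the sign was the same in both cohorts. Whether the genotype effect differed between cohorts was tested with an interaction term. The edgeR test called 0 of 19537 genes (0% of all genes) at an adjusted p under 0.05, while 1095 genes (5.6%) and 2 members had an unadjusted p under 0.05. These members were Slc40a1, whose effect was 0.41 lower on the log2 scale in cohort A (interaction -0.41, SE 0.13, unadjusted edgeR p = 0.00556, adjusted p = 0.848), and Slc11a1, whose effect was 0.54 higher in cohort A (SE 0.23, unadjusted edgeR p = 0.0261, adjusted p = 0.85). Without T60303 the latter was 0.25 (edgeR adjusted p = 0.738). In simulated counts of these mice the interaction test found 27 of 100 changes of 0.5 and 76 of 100 changes of 1 on the log2 scale, so a difference of these sizes could have been missed.

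Variation among mice of 1 genotype and cohort was used to ask which members moved together. The mean of each genotype and cohort was subtracted from log2 CPM, and 45 pairs were compared over 21 mice. Mt1 and Mt2 were the only pair past an adjusted p under 0.05 by both measures (Pearson r = 0.814, permutation p = 0.00032, adjusted p = 0.0144; Spearman rho = 0.745, permutation p = 0.00054, adjusted p = 0.0243). Without the 2 mice farthest from the median of Mt1, r was 0.75. It was 0.811 over the 11 wild-type mice (permutation test adjusted p = 0.349) and 0.868 over the 10 rNLS8 mice (permutation test adjusted p = 0.351), so that the pair did not pass the threshold within either genotype. It was 0.826 without T61340 and T60303 (permutation test adjusted p = 0.018). The 2 genes lie next to each other on chromosome 8, Mt2 at chr8:94172664-94173568 and Mt1 at chr8:94179082-94180327, both on the plus strand in GENCODE on GRCm38.

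**Figure D4:**
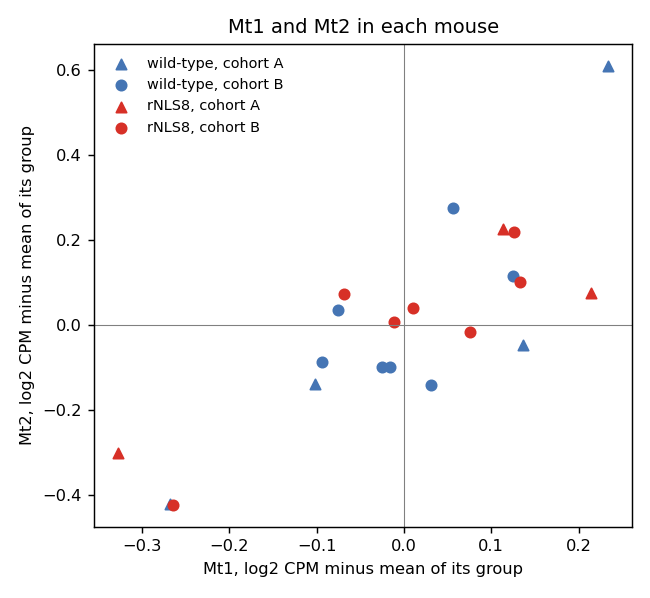
Mt2 (y axis) against Mt1 (x axis) in each of the 21 mice, both as log2 CPM minus the mean of the mouse's genotype and cohort, with colours for genotype and shapes for cohort. Mice low for Mt1 are low for Mt2 in both genotypes (r = 0.814), and the widest values on both axes are from cohort A, apart from 1 rNLS8 mouse of cohort B.

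Mt1 and Mt3, which lies on the same strand at chr8:94152607-94154146, passed the threshold by rank only (rho = 0.796, permutation test adjusted p = 0.0362; r = 0.697, permutation test adjusted p = 0.133). The 2 ferritin chains, and Tfrc with Trf or with Slc11a2, did not pass it.

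For each member, the 3 genes that followed it best over the 21 mice were found among 14588 genes with at least 50 counts on average. The same means of genotype and cohort were subtracted first. All points share library and tissue piece, so these are descriptions. The genes most like Ftl1 were its own copies, Ftl1-ps1 (r = 0.938), Ftl2-ps and Gm15590. Reads may be split among these near-identical rows, and how far this raises their r was not tested. Trf was followed by Ttyh2 (r = 0.906) and by Mag (r = 0.895), a myelin gene, together with Ddr1. Mt3 was followed by Ndufa2 (r = 0.91), a subunit of respiratory complex I, and by Ramp1 and Cxcl14. Mt1 was followed by Cst3 (r = 0.878), which encodes cystatin C, and by Tmem208 and Loxl3, while Mt2 was followed by Acy1 (r = 0.843), Mt1 itself and Sdr42e1. Fth1 was followed by Csrp1 (r = 0.872), Fam107a and Kif5a. Tfrc was followed by Tbc1d24 (r = 0.913), Cadm2 and Robo2, Slc11a2 by Arv1 (r = 0.865), Atp8b2 and Tmco6, and Slc11a1 by Msi1 (r = 0.805), Smad1 and Plk3. Slc40a1 had the weakest partners, Dazap2 (r = 0.696), Fbxo8 and Gmeb2.

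The wider iron, heme and metal network was read from 7 lists with 67 genes, of which 60 were tested. The edgeR test called 26 of them (16 higher and 10 lower in rNLS8 mice), again near the 43.6% of all genes, with a median log2 fold change of 0.01.

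**Figure D5:**
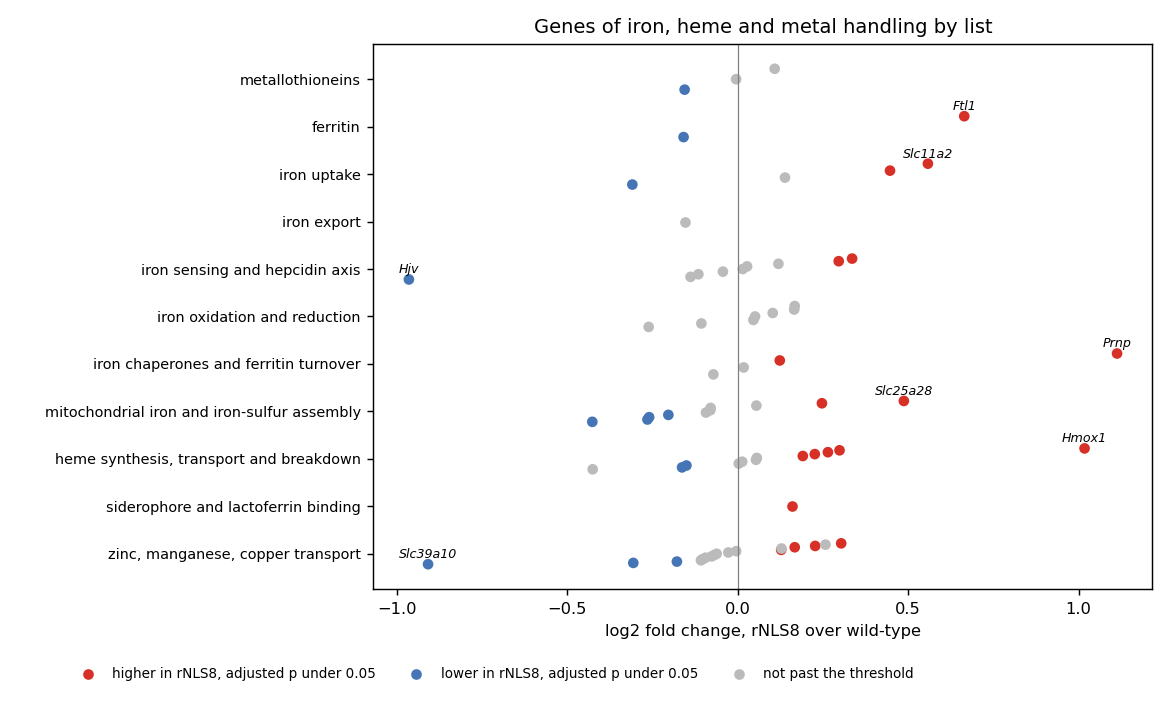
Log2 fold change of rNLS8 over wild-type mice (x axis) for the tested genes of the members' groups and of the 7 lists (rows), coloured where the edgeR adjusted p was under 0.05. Prnp and Hmox1 lie above 1, and Hjv and Slc39a10 lie near -1.

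Among 12 genes of heme synthesis, transport and breakdown, 5 rose and 2 fell, beside 22.4% and 21.2% of all genes. Hmox1, the inducible enzyme that opens the heme ring and frees its iron, had 58.9 to 96.4 normalized counts in wild-type mice (median 84.3) and 113 to 265 in rNLS8 mice (median 150). No value overlapped between genotypes. Hmox1 rose by a log2 fold change of 1.02 (SE 0.12, edgeR adjusted p = 1.51e-07), and by 0.92 without T60303, its highest mouse. Blvrb, a biliverdin reductase that acts after it, had a log2 fold change of 0.30 (edgeR adjusted p = 0.0148), which was 0.22 (edgeR adjusted p = 0.0999) without T61340 and T60303. The heme transporters Flvcr1 and Slc48a1 had log2 fold changes of 0.26 (edgeR adjusted p = 0.00491) and 0.23 (edgeR adjusted p = 0.000208).

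Iron sensing held 9 tested genes, of which 2 rose and 1 fell, beside 22.4% and 21.2% of all genes. Ireb2, which encodes the iron regulatory protein 2 that binds the hairpins printed above, had 1116 ± 58.9 normalized counts in wild-type and 1419 ± 192 in rNLS8 mice (SD, n = 11 and n = 10). Its log2 fold change was 0.34 (SE 0.06, edgeR adjusted p = 5.88e-05). Hjv, the hemojuvelin co-receptor known from hepcidin control, had 29.5 ± 5.32 and 15 ± 5.22 normalized counts and fell by 0.97 on the log2 scale (SE 0.17, edgeR adjusted p = 4.45e-05). Tfr2, the second transferrin receptor, had a log2 fold change of 0.30 (SE 0.11, edgeR adjusted p = 0.0364), which was 0.19 (edgeR adjusted p = 0.193) without T61340 and T60303 and was called in 13 of the 21 fits that left out a mouse. Hamp, the gene of hepcidin itself, had 1 count over all 21 mice.

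Of the 4 genes tested for iron chaperones and ferritin turnover, 2 rose, beside 22.4% of all genes. Prnp, the prion protein gene kept in this list for its reported link to iron reduction, had 11321 to 14765 normalized counts in wild-type mice (median 13397) and 25563 to 33420 in rNLS8 mice (median 28893). All rNLS8 mice were above all wild-type mice. Its log2 fold change was 1.11 (SE 0.05, edgeR adjusted p = 5.93e-14), and whether reads of the transgene construct add to this row was not tested. Ncoa4, the receptor that brings ferritin to autophagy, had a log2 fold change of 0.12 (SE 0.04, edgeR adjusted p = 0.0138).

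Mitochondrial iron and iron-sulfur assembly had 10 tested genes, of which 2 rose and 4 fell, beside 22.4% and 21.2% of all genes. Slc25a28, the mitochondrial iron importer mitoferrin 2, had a log2 fold change of 0.49 (SE 0.07, edgeR adjusted p = 3.67e-06), with every rNLS8 mouse above every wild-type mouse. Cisd1 and Fdx1, which encode iron-sulfur proteins of mitochondria, each fell, by 0.27 (edgeR adjusted p = 2.63e-05) and 0.26 (edgeR adjusted p = 0.000745). None of the 7 tested genes of iron oxidation and reduction was called, beside 43.6% of all genes.

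Of 17 tested genes for zinc, manganese and copper, 4 rose and 3 fell, beside 22.4% and 21.2% of all genes. Slc39a10, a zinc importer, had 4414 to 5792 normalized counts in wild-type mice (median 5216) and 1932 to 3377 in rNLS8 mice (median 2843). Every rNLS8 mouse was below every wild-type mouse. It fell by 0.91 on the log2 scale (SE 0.07, edgeR adjusted p = 2.74e-10). Slc30a10, a manganese exporter, fell by 0.31 (edgeR adjusted p = 0.00349), while Slc39a14, which imports zinc, manganese and iron, and Slc39a1, a zinc importer, had log2 fold changes of 0.30 (edgeR adjusted p = 7.11e-05) and 0.23 (edgeR adjusted p = 1.32e-05). The 1 tested gene of siderophore binding, Slc22a17, the receptor of lipocalin 2, had a log2 fold change of 0.16 (SE 0.06, edgeR adjusted p = 0.0367), and this call was not stable. It was lost with Xist as a covariate (log2 fold change 0.15, edgeR adjusted p = 0.0705) and without cohort (0.15 in both edgeR, adjusted p = 0.0968, and DESeq2, adjusted p = 0.0913), and it held in 9 of the 21 fits that left out a mouse.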

How the data were processed

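The authors deposited 1 table of whole read counts per gene symbol for 21 neocortex libraries. Per the study's methods, RNA was extracted with the RNeasy Plus Mini kit, samples with a RIN above 7 were sequenced at BGI, and reads were aligned to GRCm38. The submitters' processing notes name mm10, HISAT, HISAT2, Bowtie, Bowtie2 and RSEM. Their versions, which of them made the counts, the handling of reads that fit several loci and the strand setting are not given in the sources used here. Reads shared by near-identical genes could therefore be split or lost.

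The counts as deposited were filtered with filterByExpr (minimum count 10, minimum total 15), scaled by TMM and tested with edgeR 4.0.16 (quasi-likelihood, cohort and genotype as terms) in R 4.3.3, with Benjamini-Hochberg adjustment over 19052 genes and a threshold of 0.05. Normalized counts are counts brought to the mean effective library size (total times TMM factor). Replicates are single mice, so p-values measure the spread between mice. The members and gene lists were chosen with earlier results of these data known. Text names all members, up to 4 called genes of each list with the largest change, up to 3 of the most abundant markers of each cell type, and the 3 genes most correlated with each member, except 2 genes that are not reported here. DESeq2 1.42.0 and other scalings, filters, covariates and sample sets were alternatives. Log2 CPM for correlations used a prior count of 2 and 100000 permutations within genotype and cohort. Copies were found with BLAST+ 2.17.0 in GENCODE transcripts (at least 90% identity over 500 bases). On simulated counts the genotype test found 75 of 100 changes of 0.5 and 95 of 100 changes of 1 on the log2 scale. The changed genes were drawn at random and were far fewer than those called in the data. These rates therefore need not hold for the members.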

Additional observations from a re-analysis of the deposited data

Results flagged for a closer look

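Among rNLS8 mice, 27 genes (the members and the named genes of the lists) were checked for a single mouse far from the other 9, by the gap to its neighbour as a share of the group's range. Chance would flag about 1.35 of 27, and 4 were flagged. Wild-type mice were too many for this check. For Tfrc the highest mouse, T61342, stood off by 0.526 of the range (2075 against 1618 normalized counts). T60303 was the highest mouse for Slc11a1, by 0.698 of the range (120 against 72.4), for Fdx1, by 0.621 (157 against 138), and for Hmox1, by 0.557 (265 against 180).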

How the results depend on the processing

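Ftl1 and Slc11a2 kept their direction and their call under all 15 alternatives and in all 21 fits without 1 mouse, with log2 fold changes of 0.59 to 0.74 and 0.51 to 0.67 under the alternatives. Cohort A alone, with 7 mice, gave 2195 called genes, 3 called members and 5 called genes of the lists, and log2 fold changes of 0.11 for Mt1, -0.0271 for Trf, -0.15 for Mt3, -0.17 for Fth1 and -0.24 for Tfrc, none of them called. Cohort B alone gave 0.22 for Trf, now called, and -0.15 for Fth1 and 0.25 for Slc11a1, no longer called. Scaling by library size alone moved the median of all genes to 0.08 and the calls to 5935 higher and 2797 lower, against 4259 and 4044, and gave 0.0724 for Mt1 and, no longer called, -0.079 for Mt3 and -0.0808 for Fth1. Without a filter the values were 0.00991 for Mt1, -0.14 for Mt3 and -0.14 for Fth1, with Xist as a covariate 0.0102 for Mt1 and -0.15 for Mt3, with upper-quartile scaling -0.15 for Mt3, and without cohort -0.19 (DESeq2) and -0.18 (edgeR) for Fth1, with none of these called. Where a call was lost in 1 cohort, fewer mice were tested. For the other settings the cause was not tested.

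Leaving out 1 mouse at a time gave 7908 to 8514 called genes, 5 to 7 called members, 24 to 29 called genes of the lists and 0 to 1 genes with a called interaction. The log2 fold changes were -0.0429 to 0.0295 for Mt1, 0.06 to 0.18 for Mt2, -0.19 to -0.13 for Mt3, -0.17 to -0.13 for Fth1, 0.64 to 0.71 for Ftl1, -0.38 to -0.27 for Tfrc, 0.10 to 0.19 for Trf, 0.54 to 0.57 for Slc11a2, 0.33 to 0.48 for Slc11a1 and -0.19 to -0.12 for Slc40a1. Over the 11 wild-type mice alone and over the 10 rNLS8 mice alone, 0 of 45 pairs of members passed the threshold. No paired analysis was possible because replicate numbers are mouse numbers that no 2 groups share. Of the 10 members, Slc11a1, with 38 to 127 counts per mouse, had the largest SE (0.12). The ratios between members were added after the data were seen, as was the sum with copies found by sequence.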

Other observations

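Some genes of iron and metal handling were too low for the test, and their counts are given as totals over 10 rNLS8 and 11 wild-type mice. Lcn2, the siderophore-binding lipocalin 2, had 155 and 32 counts, of which T60303 alone held 100 and no other mouse more than 12. Ltf, lactoferrin, had 112 and 22 counts, of which T60303 alone held 87 and no other mouse more than 6. Tmprss6, a protease of the hepcidin axis, had 18 and 90. Mt4, the metallothionein of squamous epithelia, had 2 counts in all and Ftmt, mitochondrial ferritin, had 0, which allows up to 0.145 CPM in a library.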
